A study of Rattus norvegicus with 12 samples.

Results

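The baseline transcriptome of cultured rat retinal ganglion cells was described from the 3 arrays of a 12-array series that carried RNA of cells given no endothelin. All 12 arrays were Affymetrix Rat Genome 230 2.0. The 3 arrays were chosen by their titles, which call the cells untreated, while their descriptions call the same cells vehicle-treated. The cells came from retinas of Sprague-Dawley pups of postnatal days 4 to 6 and were isolated by panning, in which cells stick to a dish coated with an antibody, here to the surface protein Thy-1.1. They grew for 7 days without serum. Each mL of medium held 50 ng of brain-derived neurotrophic factor, 10 ng of ciliary neurotrophic factor and 5 ng of forskolin, which raises cyclic AMP. The neurotrophic factors were then withdrawn overnight, and the cells were harvested 24 h later. The other 9 arrays shared this whole protocol and carried cells given 100 nM endothelin-1, endothelin-2 or endothelin-3 (3 arrays each) for those 24 h. Those 9 arrays enter below only where differences between replicate numbers are looked for again, and no treatment is compared. Each group has biological replicates 1, 2 and 3. The labels do not say whether a number stands for a separate preparation of cells, or how many animals were pooled. Of 31042 probe sets, 20826 carried a single gene symbol, and the brightest probe set of each of 14217 genes was ranked by its mean log2 signal over the 3 arrays.

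Retinal ganglion cells are the output neurons of the retina: they collect input from bipolar and amacrine cells and send axons through the optic nerve to the brain. They use glutamate as transmitter, which they load into vesicles with the transporter encoded by Slc17a6, and their long axons need a large supply of cytoskeleton, motor proteins and mitochondrial energy. In young rats they depend on neurotrophic factors for survival, and in culture they regrow axons after having lost their own during isolation. Panning on Thy-1 enriches them, but fibroblasts and some other cells of the eye also carry Thy-1 on their surface.

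Signals were the authors' MAS5 values, a linear brightness per probe set. The median over all probe sets was 142, 136 and 164 on untreated replicates 1, 2 and 3, and the trimmed means (2% taken off both ends) were 497.2 to 498.3. Among the 14217 genes the median signal was 359, and the top 10%, which are 1422 genes, began at 2404. Just inside this bound lay Trappc2b at 2404.3 and just outside it Psmd8 at 2403.7. A rank describes the brightness of a probe set, which depends on how well its probes bind, and not the number of transcripts. In the 4525 genes with at least 2 probe sets, the brightest and dimmest differed by a median of 2.49 on the log2 scale. As a yardstick for probe sets of genes with no known use in these cells, 28 odorant, vomeronasal and taste receptor genes had a median signal of 14.3, and the brightest of them, Vom1r90, averaged 51.4. In each of the 3 arrays, 10238 genes (72.0%) were brighter than the brightest of these receptors on that array. In what follows, 3 values in a row are the signals on replicates 1, 2 and 3 in that order, SD is over the 3 arrays on the log2 scale, and a percentile is a place in the ranking of genes.

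The cells carried strong signals of ganglion cell genes. Sncg, gamma-synuclein, which in the retina marks ganglion cells, read 15347, 22770 and 26264 (SD 0.40, n = 3) and was the seventh-brightest of all genes. Rbpms, an RNA-binding protein found in the retina almost only in ganglion cells, read 5281, 8213 and 6327 (SD 0.32). Thy1, the protein on which the cells were panned, read 3069, 5273 and 6732 (SD 0.58). All 3 genes lay above the 96th percentile on the mean of the arrays, and Thy1 and Sncg were both lowest on replicate 1 and highest on replicate 3. Slc17a6, the vesicular glutamate transporter of ganglion cells, read 11820, 14406 and 14392. Nrn1, the axon growth protein neuritin, read 5535, 7855 and 7676. Of 31 genes listed as ganglion cell markers, 26 had a named probe set, 10 were in the top 10% and 8 were below the median gene. With the mean over a gene's probe sets in place of the brightest, 6 were in the top 10%.

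The transcription factors on the list spread widely in level and in evenness. Sox4, a factor of young neurons, was the brightest of them at 5507, 4027 and 4264 and lay in the top 10%. Ebf1 was even over the arrays at 2184, 2394 and 2118 (SD 0.09), whereas Sox11, related to Sox4, read 492, 615 and 1614 (SD 0.91). Eomes, of intrinsically photosensitive and other ganglion cell types, read 1920, 1872 and 2441. Isl1, a homeodomain factor of differentiating ganglion cells, read 932, 1156 and 1931. Pou4f1, the Brn3a factor that labels most ganglion cells in rodents, read 456, 378 and 935, and for Isl1 and Pou4f1 replicate 3 stood above both others. Opn4, the melanopsin photopigment of a small ganglion cell class, stayed near 138, 141 and 200. At the low end, Tbr1, of a few ganglion cell types, read 2.96, 24.4 and 82.5, and Ebf2 3.19, 4.59 and 3.30, within the range of the odorant, vomeronasal and taste receptors on all 3 arrays. Pou4f2, Pou4f3, Atoh7, Dlx2 and Ebf3 were not analysed here.

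**Figure D1:**
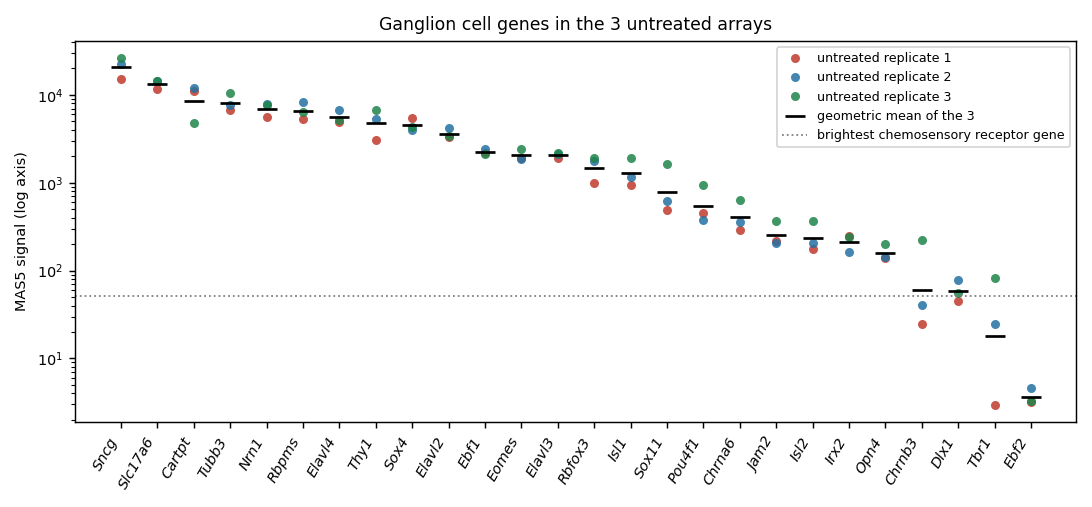
MAS5 signal (log axis) of the 26 measured ganglion cell genes on the 3 untreated arrays; each point is 1 array, black dashes are the geometric mean and the dotted line is the mean of the brightest odorant, vomeronasal or taste receptor gene (51.4). Sncg and Slc17a6 are brightest, Cartpt stands low on replicate 3 (4764, against 10987 and 11988 on replicates 1 and 2), and Tbr1 and Ebf2 lie under the dotted line on their means.

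The 30 brightest genes joined genes that any cell expresses to neuronal ones. The first 2 were the mitochondrial genes COX2 and COX1, subunits of cytochrome oxidase, at 21949, 33039 and 42617 for COX2. Tmsb4x, the actin-binding thymosin beta 4, read 18643, 28349 and 29686, and Actg1, gamma-actin, 16670, 25413 and 29564. Ribosomal proteins supplied 7 of the 30 (Rps29, Rps23, Rpl26, Rpl37a, Rpl27a, Rpl7a and Rps24), and Eef1a1 is the translation elongation factor. Neuronal members were Sncg, Stmn2, Gap43, Rtn1, Dpysl2, Syt4, the peptide-processing enzyme Cpe, Ndrg4, and Zwint, which in rat encodes a protein that binds SNAP25. The remainder were Gnas, Txn1, Ywhag, Ywhaq, Tubb2a, Calm2, Mrfap1, Aldoa and Stmn1. All 30 were lowest on replicate 1, 25 were highest on replicate 3 and 5 on replicate 2, yet 1 of the 30, COX1, spanned 2-fold. Under each other way of ranking that was tried, 24 to 29 of the 30 remained among the 30 brightest.

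Of the gene lists, chosen with earlier results of these data known, axonal and cytoskeletal genes had the highest median percentile. Of 28 measured, 22 lay in the top 10% (16 by the mean over probe sets) and none below the median gene. Their median percentile was 98.6. Stmn2, a microtubule-destabilising protein of growing axons, read 13892, 18487 and 22058. Gap43, the growth cone phosphoprotein, read 13577, 18847 and 17133. Of the neurofilament subunits, the light chain Nefl read 9956, 11443 and 12424 and the medium chain Nefm 9334, 11315 and 11807, whereas the probe set of the heavy chain Nefh read 1289, 1152 and 1328. The lowest 2 of the group, Tubb4a (661, 990 and 2390) and Map1a (499, 521 and 1010), were also the members that reached a 2-fold range, both by a high value on replicate 3.

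Motor proteins that carry cargo along axons were mostly bright. Of 21 measured, 11 were in the top 10%. Klc1, a kinesin light chain, read 10204, 15370 and 12131, and Dync1h1, the dynein heavy chain, 5922, 6739 and 4811. Kif5a, the neuronal conventional kinesin, read 3802, 5701 and 5739. Kif1a, the kinesin of synaptic vesicle precursors, read 271, 326 and 1219, more than 2-fold higher on replicate 3. Kif1b was lowest at 21.4, 15.9 and 30.8.

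Genes of vesicle release ranged from the 30 brightest to the receptor range. Syt4, a synaptotagmin, read 13130, 14760 and 16483, and Snap25, a SNARE protein of the plasma membrane, 10711, 12948 and 12683. Vamp2, a vesicle SNARE, read 4598, 5592 and 4078, while the SNARE genes Stx1a (406, 447 and 529) and Vamp1 (334, 398 and 436) were near the median gene. Of 24 measured members, 12 were in the top 10% (7 by the mean over probe sets) and 6 below the median gene. Syt1, the fast calcium sensor, read 107, 126 and 935, so its probe set was bright on 1 of the 3 arrays. Slc17a7, the other vesicular glutamate transporter of the brain, read 22.9, 24.5 and 30.3, in the range of the odorant and taste receptors, against the bright Slc17a6 given above.

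Among 24 voltage-gated channels, 3 were in the top 10%, all of them sodium channel subunits. Scn3b read 4676, 5358 and 3147, Scn3a 2280, 2990 and 2686 and Scn2a 2617, 3224 and 1884. Scn3b is an auxiliary subunit, and Scn3a and Scn2a form the pore. Kcnd3, an A-type potassium channel, read 1813, 2388 and 2404. The pacemaker channel Hcn4 (4.77, 2.28 and 22.8) and the calcium channel Cacna1e (17.8, 4.25 and 42.4) were lowest.

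Transmitter receptors were dimmer as a group. Of 22 glutamate receptor genes, none lay in the top 10% and 16 were below the median gene. Gria2, the AMPA receptor subunit that limits calcium entry, was brightest at 2653, 3177 and 1541, followed by Grin1, the obligatory NMDA receptor subunit, at 524, 715 and 600. Grik5 (448, 475 and 567) and Grm8 (416, 499 and 329) came next, and Grik3 (16.1, 22.3 and 64.2) and Grm5 (36.6, 28.5 and 19.9) last. Of 27 GABA, glycine and acetylcholine receptor genes, 1 reached the top 10%: Glrb, the glycine receptor beta subunit, at 2325, 2720 and 2635. The GABA-A subunits Gabra2 (1328, 1774 and 1383), Gabrb2 (1137, 1214 and 875) and Gabrb1 (969, 1090 and 731) followed. Chrna9 (0.735, 10.9 and 4.20) and Chrm1 (1.73, 5.76 and 29.0) were lowest.

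Receptors for neurotrophic factors spread over the ranking, with a median percentile of 51.8 for 18 genes. Ret, the signalling receptor of the GDNF family, was brightest at 3841, 3489 and 2532. Ntrk2, the receptor of the brain-derived neurotrophic factor supplied in the medium, read 1473, 1753 and 1736, with little spread (SD 0.14). For ciliary neurotrophic factor, also supplied, the shared signalling chain Il6st read 2697, 996 and 1125, while Cntfr, its binding chain, read 42.6, 25.0 and 101 and Lifr 36.6, 47.0 and 53.3. Met was lowest at 9.28, 17.8 and 53.4. Among 15 ligands, Bdnf itself read 2818, 2202 and 2561 and Igf1 2377, 2189 and 2024. Igf2, a growth factor of fetal tissues, was the brightest ligand on the mean and far from even at 9543, 1173 and 2071. Ntf4 (3.68, 7.85 and 5.03) and Lif (30.5, 5.81 and 7.13) were lowest.

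Of 7 genes of the endothelin system, 4 had a named probe set. Ece1, the enzyme that cuts the precursor to active endothelin, read 518, 424 and 449, and the related Ece2 182, 165 and 228. Edn1, the precursor of endothelin-1, read 59.4, 65.2 and 108, and Edn2 5.47, 6.14 and 20.4. Edn2 thus lay at the level of the odorant and taste receptors, and Edn1 was above the brightest of them on each array by a small margin. Edn3 and the receptors Ednra and Ednrb were not analysed here.

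Receptors of axon guidance and adhesion included 5 of 27 in the top 10%. Lingo1, a co-receptor of myelin inhibitors, read 3176, 3962 and 4239 and Robo2, a receptor of the repellent Slit, 3071, 3716 and 3534. Nrp1, a semaphorin receptor, read 3433, 3275 and 2719. Unc5a (3.69, 3.89 and 51.1) and Dcc (5.26, 7.17 and 44.9), both netrin receptors, were lowest.

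Energy metabolism was bright and even. Of 18 glycolytic genes 11, of 16 citric acid cycle genes 13 and of 26 respiratory chain genes 23 lay in the top 10%. The median SD over the arrays was 0.08 for the citric acid cycle, 0.13 for the respiratory chain and 0.15 for glycolysis, against 0.26 over all genes. Pdha1, of pyruvate dehydrogenase, read 5341, 5346 and 5485, and Sdhd, of succinate dehydrogenase, 4188, 4302 and 4213. Aldoa, an aldolase, was the brightest glycolytic gene at 12551, 16375 and 15718, and Eno2, the neuronal enolase, read 8801, 10792 and 9904. Hk2, the hexokinase of muscle and growing cells, was at 26.0, 21.4 and 69.0, while Hk1 read 1853, 2081 and 2175. Spread was smaller for bright probe sets in general, as given below for 4 bins of signal.

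Stress and injury genes were represented at high rank. Of 13 heat shock genes 8 were in the top 10%, with Hsp90ab1 at 8681, 9846 and 12950. Jun, a transcription factor that rises in ganglion cells after axon injury, read 2807, 3489 and 2710, and Klf9, a repressor of axon growth in ganglion cells, 3844, 3985 and 3397. Ecel1 and Gadd45a, both induced by nerve injury in rodents, were the other 2 of 21 injury genes in the top 10%. Of 19 apoptosis regulators none was in the top 10%. Bad, which promotes death, read 1834, 2079 and 1792 and Mcl1, which opposes it, 1614, 1435 and 1640, while Bcl2 read 21.0, 1.49 and 39.6. Of 25 cell cycle genes none was in the top 10% and 21 were below the median gene, led by Pcna, the DNA polymerase clamp, at 2711, 2352 and 2108.

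Genes of other retinal cells were mostly dim. None of 19 photoreceptor genes reached the median gene, and 2 were brighter than all odorant and taste receptors on all 3 arrays: Rom1 (191, 218 and 369) and Pde6g (90.1, 110 and 121). Of 6 bipolar cell genes all were below the median, and of 12 amacrine cell genes 10 were, with Gad2, a GABA-synthesising enzyme, brightest at 393, 282 and 902. Calb1, calbindin, listed for horizontal cells, read 2140, 1977 and 1238, but ganglion and amacrine cells also express it. Of 13 Müller glia genes, Dkk3 (7801, 10345 and 9203), Clu (4488, 6986 and 12130) and Vim (7759, 6711 and 6977) were in the top 10%, and neurons and fibroblasts express these as well. Of the 13, 11 were above the odorant, vomeronasal and taste receptors on every array, as were 72.0% of all genes. Among these were Glul, the glutamine synthetase of Müller cells, at 1440, 1138 and 1277, the lipid carrier Apoe at 1370, 2712 and 2538 and the glutamate transporter Slc1a3 at 279, 424 and 398. The other 2 were Rlbp1 (32.1, 80.7 and 50.9) and the potassium channel Kcnj10 (18.6, 30.5 and 17.6). Gfap, the filament of astrocytes, read 87.0, 193 and 180, and 4 of 9 astrocyte genes were above the receptors on every array. Of 10 genes of the oligodendrocyte lineage 3 were: Cnp (1030, 991 and 784), Mbp (245, 351 and 569) and Pdgfra, which read 4385, 481 and 349. Olig2 (7.13, 2.30 and 45.2) and Sox10 (6.59, 3.81 and 7.76) were lowest.

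Genes listed for immune, vascular, connective tissue and other non-neural cells were unequal in signal. Of 16 microglia and macrophage genes, Fcer1g (2961, 4146 and 2754) was in the top 10%, Lyz2 read 2788, 2754 and 641, and Aif1, the Iba1 protein, 787, 1183 and 487, while the microglial receptors P2ry12 (19.3, 23.5 and 19.1) and Trem2 (30.9, 23.3 and 56.6) were dim. Of 12 endothelial genes, Kdr was brightest at 288, 513 and 546, and Pecam1 read 23.4, 11.7 and 21.5. In smooth muscle and pericytes Tagln (2709, 4637 and 5003) and Myl9 (1399, 2388 and 1513) were brightest. Of 11 genes 8 were below the median gene, and 9 exceeded the receptors on every array, as did 72.0% of all genes. Among the 9 were the pericyte genes Pdgfrb (256, 191 and 91.0), Abcc9 (328, 320 and 153) and Notch3 (146, 125 and 156). Kcnj8 (38.2, 55.5 and 13.6) and Rgs5 (19.7, 30.1 and 37.4) did not exceed the receptors. No lens or erythrocyte gene, 1 of 7 T cell genes (Lck), 1 of 11 pigment epithelium genes (Mitf) and 1 of 19 liver and pancreas genes (Ins1) exceeded the receptors on every array. Fibroblast genes had 4 of 17 members in the top 10% (2 without replicate 1, 8 without replicate 2 and 9 without replicate 3). In bulk RNA, fewer cells of a type and less RNA per cell cannot be told apart.

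**Figure D2:**
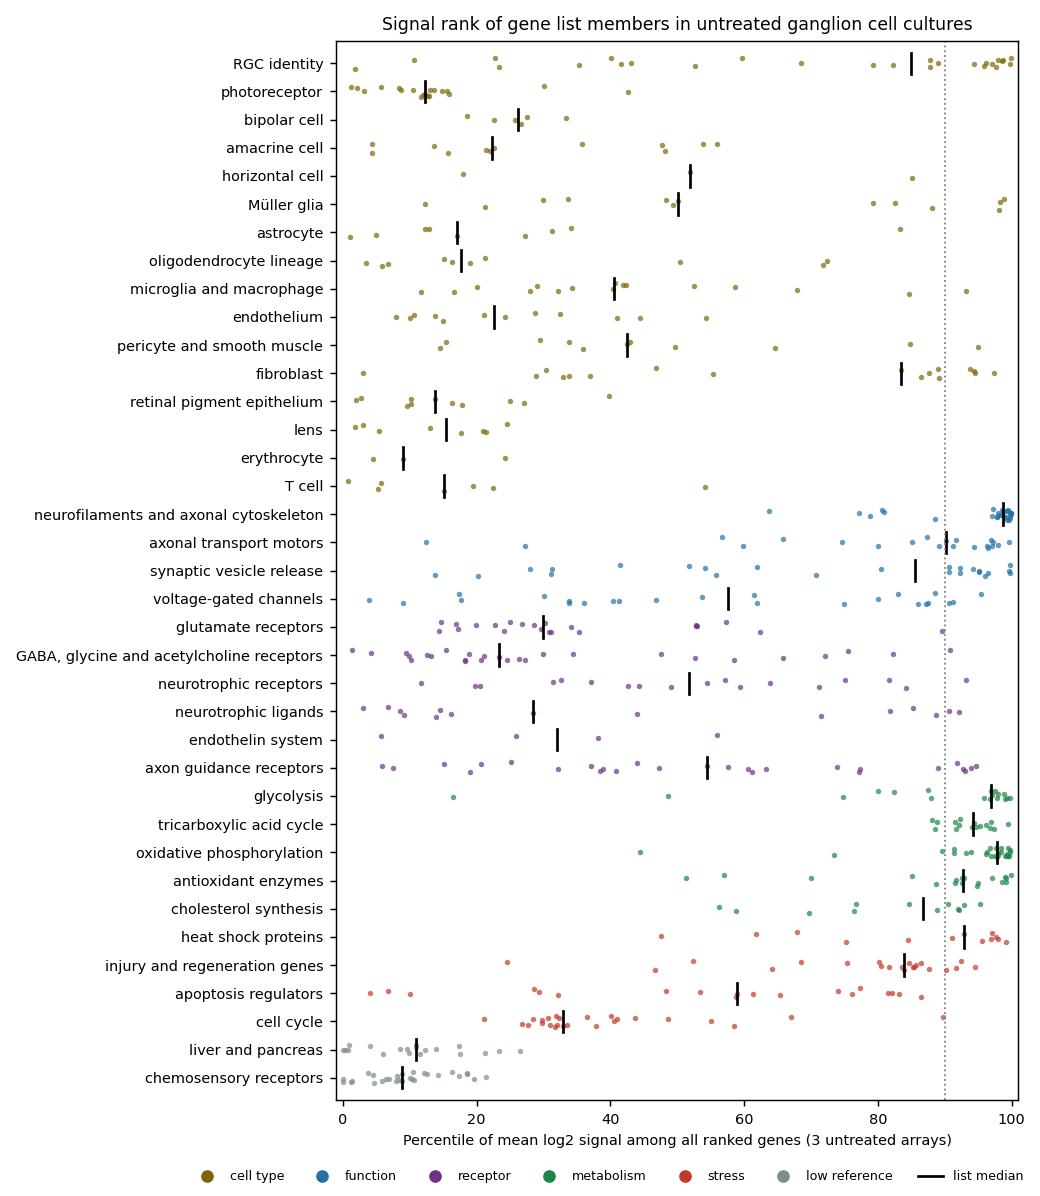
Percentile of each list member in the ranking of 14217 genes by mean log2 signal over the 3 untreated arrays, 1 point per gene and a black bar at the list median; the dotted line marks the 90th percentile and the lowest line shows the 28 odorant, vomeronasal and taste receptors. Cytoskeletal genes have a median percentile of 98.6 and respiratory chain genes one of 97.7, whereas photoreceptor genes have one of 12.4.

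The 3 arrays agreed closely for bright genes and poorly for dim ones. Across all 31042 probe sets, Pearson's r was 0.950 between replicates 1 and 2, 0.923 between 1 and 3 and 0.931 between 2 and 3. Probe sets of 1 array are not independent replicates, so these values describe the arrays. In 4 equal bins of mean signal, the median SD was 1.02, 0.439, 0.246 and 0.171 from the dimmest to the brightest. Of the 15521 probe sets at or above the median (a signal of 144), 1670 (10.8%) spanned at least 2-fold, against 80.3% in the dimmest bin. Without the filter 10943 probe sets did so. The steadiest genes of the top 10% were Map4k4, a kinase, at 2732, 2729 and 2727, and Ppp1cc, a catalytic subunit of protein phosphatase 1, at 6488, 6476 and 6493. Snx2, Psmc3, Pdap1, Ppp1r14b, Gspt1, Adss2, Rtraf and Rab5if completed the 10 steadiest.

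Each array was next set against the mean of the other 2. With 1 array on a side there is no test, and a count is of probe sets past 2-fold among the 15521. Replicate 1 was higher in 428 (2.76%) and lower in 194 (1.25%), replicate 2 higher in 20 (0.129%) and lower in 274 (1.77%), and replicate 3 higher in 630 (4.06%) and lower in 297 (1.91%). Replicate 3 had the most probe sets past 2-fold (927, against 622 on replicate 1), but at 4-fold it had 109, against 118 on replicate 1. Without the filter on low signal the split of replicate 1 turned, to 1767 higher and 3738 lower. The splits of replicates 2 and 3 depended on scaling: with each array centred on its median, replicate 2 was higher in 61 and lower in 161, and replicate 3 higher in 387 and lower in 598. That centring moved the log2 signals of replicates 1, 2 and 3 by 0.05, 0.11 and -0.16.

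The same differences were looked for in the 9 endothelin-treated arrays, which the untreated values did not use. Limma compared each replicate number with the mean of the other 2, with the treatment as a term. A probe set was tested if its mean log2 signal over the 9 arrays was at or above the median. Where nothing says that arrays under 1 number came from separate cultures, these p-values measure only the spread between them. Replicate number 1 was called higher in 22.0% and lower in 33.8% of 15521 probe sets (4.01% and 1.60% with at least 2-fold). For replicate number 2 the shares were 25.8% and 21.2% (0.303% and 2.26% with at least 2-fold), and for number 3 they were 29.6% and 29.8% (4.53% and 2.64%). With median centring the higher and lower counts turned to 5984 and 2360, 6642 and 2163, and 1978 and 9422, in place of 3418 and 5250, 3999 and 3291, and 4590 and 4624.

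Most probe sets that stood apart in the untreated arrays did so again. Of the 405 that were higher on untreated replicate 1 and were tested, 396 were called higher under number 1 and 314 by at least 2-fold (77.5%, and 50.4% of the treated arrays' own list). Of 592 higher on replicate 3, 588 were called higher and 479 by at least 2-fold (80.9%, and 68.1% of the treated list). Of 258 lower on replicate 2, 240 were called lower and 161 by at least 2-fold (62.4%, and 46.0%). Of 179 lower on replicate 1, 172 were called lower (118 by at least 2-fold), and of 282 lower on replicate 3, 270 were (180). Of 17 higher on replicate 2, all 17 were called higher and 8 by at least 2-fold (47.1%, and 17.0%).

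**Figure D3:**
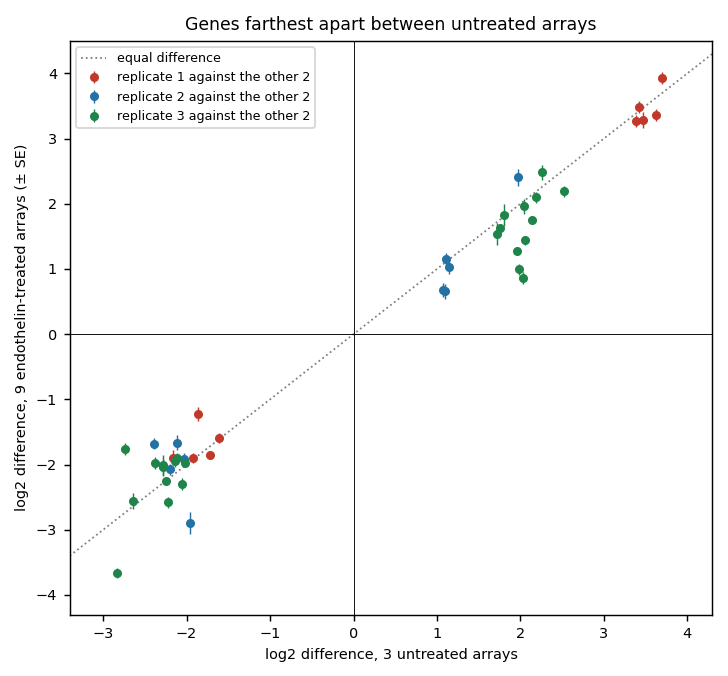
Log2 difference of an untreated array from the mean of the other 2 (x axis) against that on the 9 endothelin-treated arrays (y axis). Points are the genes farthest apart on each array, among genes at or above the median gene. Bars are SE from limma, and the dotted line marks equal differences. All 44 points lie in the quadrants of equal sign.

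The genes farthest from the other arrays on replicate 1 were taken among genes at or above the median gene. The 5 highest of these lie outside the fibroblast list. Twist2, a member of that list, stood farther above the other arrays than these 5 but lay below the median gene. Slpi, a protease inhibitor of secretions, read 5588, 515 and 362, with a log2 difference of 3.69 from the mean of the other 2. Its difference on the treated arrays was 3.93 ± 0.09 (SE; limma adjusted p = 5.85e-11). Tgm2, tissue transglutaminase, read 7864, 976 and 414, and Pdgfra, a growth factor receptor of fibroblasts and oligodendrocyte precursors, 4385, 481 and 349. Rnase4 (2919, 283 and 246) and Serpinf1, which encodes the factor PEDF (2896, 340 and 225), completed the 5 highest, and all 5 were called higher by at least 2-fold under number 1. The 5 lowest, Brcc3-ps7, Cryab, Fam111a, Hmox1 and Spetex2l1, were likewise called lower; Brcc3-ps7 is named as a pseudogene, so its signal could come from a near-identical copy.

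The fibroblast list was highest on replicate 1 in 17 of 17 members, as were 4141 of all 14217 genes. Mgp, matrix Gla protein, read 13529, 6627 and 2463. Col3a1, of collagen type III, read 10636, 3668 and 1319, and Col1a2, of collagen type I, 11513, 2417 and 1774. Fn1, fibronectin, read 6448, 3337 and 1865. For each of these 4 genes replicate 1 was highest and replicate 3 lowest. The summed signal of the list was 77219, 24035 and 13205, and its median log2 difference on replicate 1 was 2.48, beside -0.03 over all genes. Among the treated arrays, 13 of the 13 tested members were higher under number 1, all by at least 2-fold, where 4.01% of all probe sets were. Fbln1, Fap, Twist2 and Col6a3 were too dim to be tested. The mean signal that decided this included the number 1 arrays. Dim members such as Twist1 and Prrx1 could therefore pass by their number 1 signals, and the count can lean toward this result.

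Ganglion cell genes went the other way on replicate 1. Of 26, 19 were lowest there, as were 5241 of all 14217 genes, with a median log2 difference of -0.41 (-0.26 after quantile normalization). Under number 1 of the treated arrays 16 of 22 were lower, 3 were higher and 3 were not called, beside 33.8% lower over all probe sets. The log2 difference there was -0.82 ± 0.06 for Thy1 (SE, limma adjusted p = 2.6e-07), -0.46 ± 0.05 for Sncg and -0.21 ± 0.04 for Rbpms. Cartpt, a neuropeptide of direction-selective ganglion cells in mouse, was higher at 0.64 ± 0.06. Axonal cytoskeleton genes had a median of -0.26 (-0.08 after quantile normalization), and 23 of 28 were called lower, beside the same 33.8%. With median centring 16 of the 28 were called lower and 2 higher. Of the 22 ganglion cell genes 12 were then lower and 4 higher. Over all 15521 probe sets 2360 were then lower and 5984 higher. The fibroblast list moved with these differences in the opposite direction, as given above, and the brightest genes as a whole were lowest on replicate 1; the part of either in them was not tested.

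Cell cycle genes were also highest on replicate 1 in 21 of 25 members, with a median log2 difference of 0.55. On the untreated arrays 9 of the 25 spanned at least 2-fold. The 22 members tested under number 1 of the treated arrays had a larger median log2 difference of 1.73. Of the 22, 20 were called higher, 17 of them by at least 2-fold, beside 22.0% and 4.01% of all probe sets. The mean that decided which members were tested included the number 1 arrays. Pcna read 2711, 2352 and 2108, and was higher by 0.82 ± 0.05 on the treated arrays (limma adjusted p = 3.24e-08). Mki67, the Ki-67 proliferation marker, read 288, 195 and 172. Ccnd1, cyclin D1, ran the other way, at 561, 623 and 1135, and was lower on the treated arrays (log2 difference -0.82 ± 0.09). The growth factor gene Igf2 (9543, 1173 and 2071) and the receptor gene Egfr (1488, 265 and 208) were highest on replicate 1 as well. The part of fibroblast cells in these values was not tested.

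Replicate 2 was highest in cholesterol synthesis. Fdps, farnesyl diphosphate synthase, read 3784, 6064 and 3157, and Idi1, isopentenyl diphosphate isomerase, 2963, 4717 and 2152. Sqle, squalene epoxidase, read 2020, 3840 and 1950. Of 12 measured members 11 were highest on replicate 2, beside 4364 of all 14217 genes, with a median log2 difference of 0.76, beside 0.00 over all genes. Nsdhl, at 1319, 1231 and 897, was the exception. All 12 were called higher under number 2 of the treated arrays, 1 by at least 2-fold (Sqle, 1.07 ± 0.04, limma adjusted p = 1.95e-08), where 25.8% of all probe sets were called higher.

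Microglia and macrophage genes also moved with replicate 2. The summed signal of 16 genes was 8616, 10859 and 6540, and 8 were highest on replicate 2, as were 4364 of all 14217 genes, with a median log2 difference of 0.39. Of 11 tested on the treated arrays, 9 were higher under number 2 and none lower, beside 25.8% higher and 21.2% lower over all probe sets. Lyz2, lysozyme of macrophages, was higher by 1.04 ± 0.09, and Aif1 by 1.28 ± 0.08. Lyz2 was also called higher under number 1, by 0.87 ± 0.09, and on the untreated arrays it stood low on replicate 3 only. Not every member moved this way: on the untreated arrays 3 were highest on replicate 1 and 5 on replicate 3. Cd68 and C1qb were not called under number 2, and Cd68 (158, 214 and 422) was higher under number 3 by 0.97 ± 0.11. The defining microglial gene P2ry12 stayed within the range of the odorant and taste receptors on all 3 arrays. The part of these cells in the cholesterol genes was not tested.

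The genes farthest from the others on replicate 2 were again taken among genes at or above the median gene. On the high side they were Slc13a3, a dicarboxylate transporter, at 1636, 2970 and 354, Fcrl2, Ap2b1, Fam111a and Eml2. On the low side were Ptgr1, a prostaglandin and aldehyde reductase, at 3274, 765 and 4950, the chemokine Cxcl12 at 6430, 694 and 1581, the complement inhibitor Serping1, the gap junction gene Gja1 and the chemokine Ccl11. All 10 were called in the same direction on the treated arrays, with limma adjusted p up to 0.000428.

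Replicate 3 was highest in antioxidant genes. Hmox1, heme oxygenase 1, read 1411, 2569 and 8385, and Nqo1, a quinone reductase, 2149, 1718 and 7474. Gstp1, a glutathione transferase, read 7674, 8151 and 14707. For each of the 3 genes replicate 3 stood above both others. Of 18 measured members 13 were highest on replicate 3, beside 5712 of all 14217 genes, with a median log2 difference of 0.50 (0.26 after median centring), beside 0.02 over all genes. Under number 3 of the treated arrays 13 of 18 were called higher, 2 lower and 3 were not called, where 29.6% of all probe sets were called higher. Hmox1 was higher by 1.75 ± 0.06 and Nqo1 by 1.27 ± 0.04 (limma adjusted p = 8.84e-10 and 7.11e-10). Prdx4, a peroxiredoxin of the endoplasmic reticulum, was lower (-0.90 ± 0.07). With median centring 10 of the 18 were highest on untreated replicate 3. Under number 3 of the treated arrays 11 were then called higher and 6 lower, beside 1978 higher and 9422 lower of 15521 probe sets.

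Among genes at or above the median gene, the 12 highest and the 12 lowest on replicate 3 were taken. Of the 12 highest, Sostdc1, a secreted BMP and Wnt antagonist, stood first at 205, 251 and 1305. Vstm2l (219, 327 and 1215), Kif1a (271, 326 and 1219), the chaperone gene Cryab (244, 559 and 1537), the chemokine Cxcl3, Akr1b8, Brcc3-ps7, Slc25a51l1, and Rbfox2 and Ddx17, of RNA splicing, followed, with Hmox1 and Nqo1 given above. All 12 were called higher under number 3 on the treated arrays, 10 by at least 2-fold. The 12 lowest on replicate 3 were Fgl2 (1602, 869 and 165), Tgm2, Slc13a3, the complement gene C3 (5496, 1048 and 463), Nfia, Igfbp5, Col3a1, Slpi, Serpinf1, Lyz2, Pdgfra and Vcan. Of these 12, 11 were highest on replicate 1, and all 12 were called lower by at least 2-fold. The fibroblast list was lowest on replicate 3 in 16 of 17 members.

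**Figure D4:**
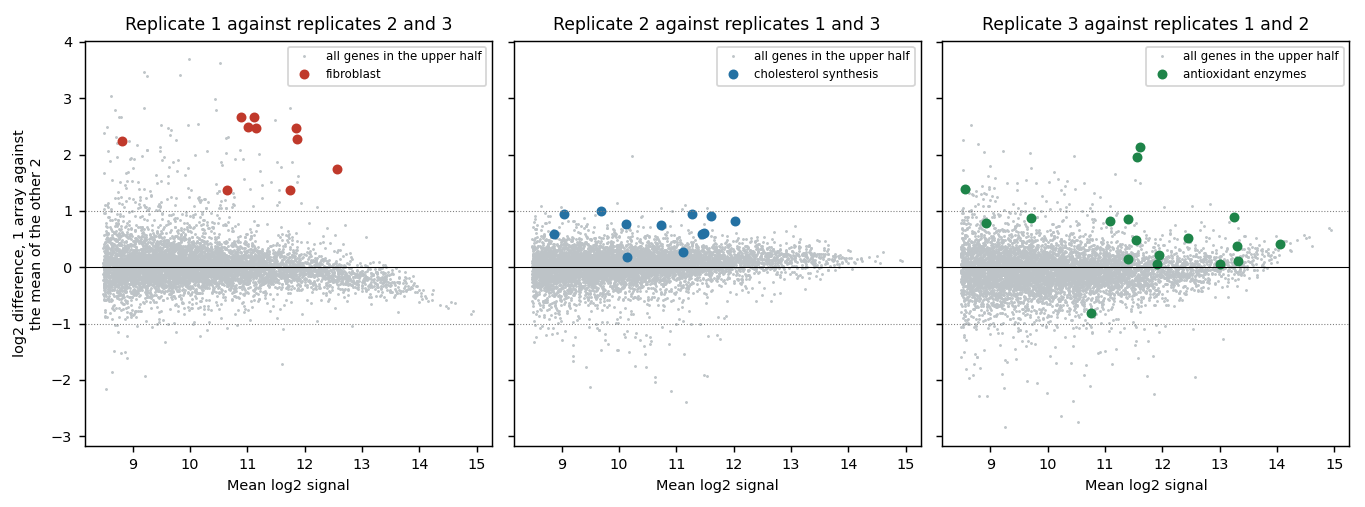
Log2 difference of each untreated array from the mean of the other 2 (y axis) against mean log2 signal (x axis) for genes at or above the median; grey points are all such genes and coloured points are the members of 1 list per panel. The fibroblast genes stand above 1 (2-fold) on replicate 1, the cholesterol genes above 0 on replicate 2, and Hmox1 (2.14) and Nqo1 (1.96) are the highest antioxidant genes on replicate 3.

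**Figure D5:**
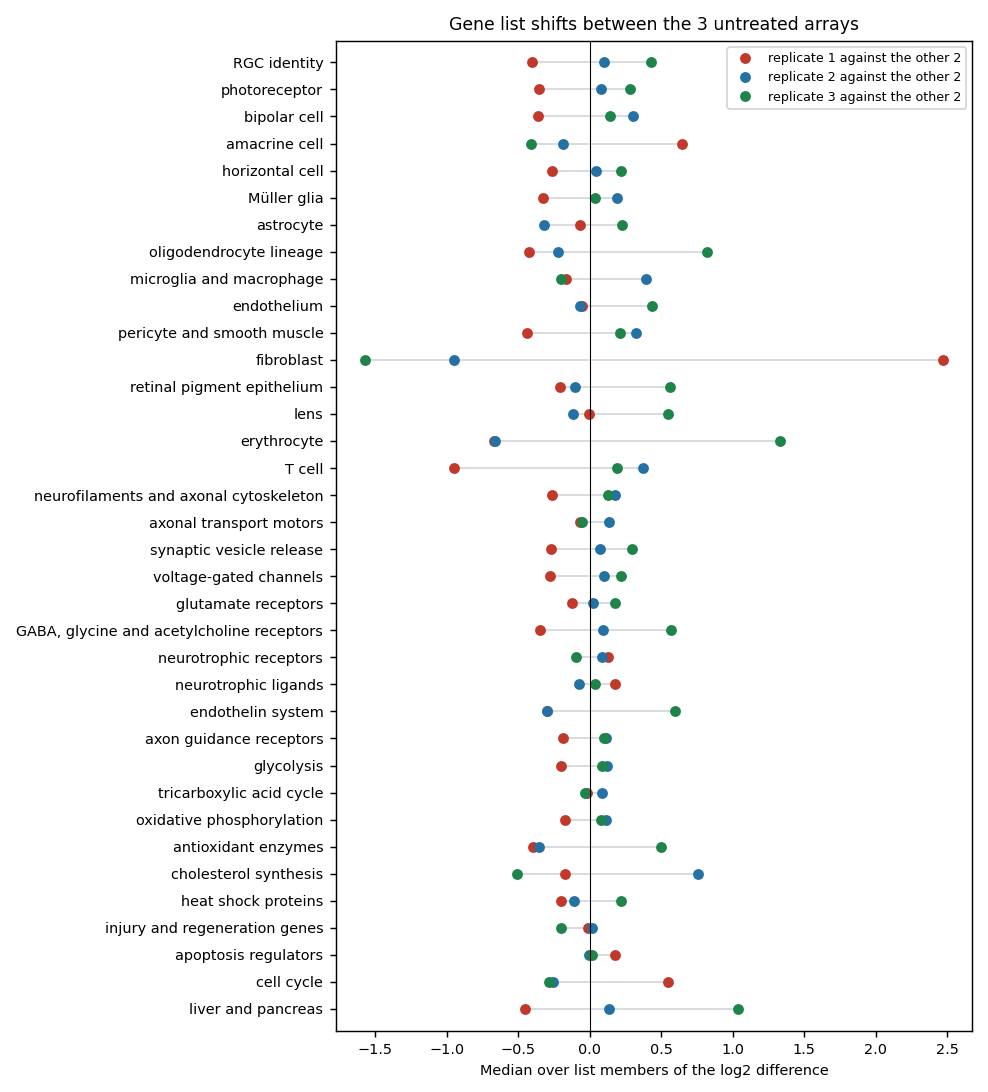
Median over list members of the log2 difference of each untreated array from the mean of the other 2, with 1 point per array and list. Some of these medians change sign under another scaling. Fibroblast genes stand at 2.48 on replicate 1, cholesterol synthesis at 0.76 on replicate 2, and the liver and pancreas list, all of whose members are below the median gene, at 1.04 on replicate 3 (0.24 after quantile normalization).

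Promoters of cholesterol and antioxidant genes are shown for the letters that known regulators of each pathway recognise. Antioxidant genes in mammals can be switched on through the antioxidant response element, searched as TGACNNNGC, and cholesterol genes through sterol elements, searched as TCACNCCAC, next to CCAAT boxes. Windows were the RefSeq sequences (GRCr8) from 250 bases before to 50 after each annotated start, read on both strands. A list gene entered with its first window only, whereas the shares over all windows counted every window. TGACNNNGC was in 5 of the 15 antioxidant promoters with a window (33.3%) and in 12.1% of 33469 windows. Nqo1 held no match and Hmox1 had no window, while Prdx4, which was lower under number 3, held a match. CCAAT was in 8 of the 10 cholesterol promoters (80.0%) and in 37.5% of all, and TCACNCCAC in 0 of 10 and 1.12%. The 5 and 8 are counts of letters, and neither binding nor activity was measured. The 250 bases before the start are printed for 2 genes of each list, with the matched letters in capitals. Gstp1 lies at chr1:210769706-210769955 (minus strand, match at base -61 from the start), Gclm at chr2:213031885-213032134 (plus strand, match at -172 and on the opposite strand), Fdps at chr2:176804817-176805066 (minus strand) and Idi1 at chr17:66547525-66547774 (minus strand). In Gstp1 the match TGACTCAGC stands close to the start, whereas in Gclm it is farther from it, and Fdps and Idi1 each hold 2 CCAAT matches.
Gstp1: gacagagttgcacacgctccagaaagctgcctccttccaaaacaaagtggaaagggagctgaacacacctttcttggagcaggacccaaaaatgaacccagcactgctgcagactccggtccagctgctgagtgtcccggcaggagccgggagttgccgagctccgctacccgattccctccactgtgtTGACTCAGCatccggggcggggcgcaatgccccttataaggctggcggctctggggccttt
Gclm: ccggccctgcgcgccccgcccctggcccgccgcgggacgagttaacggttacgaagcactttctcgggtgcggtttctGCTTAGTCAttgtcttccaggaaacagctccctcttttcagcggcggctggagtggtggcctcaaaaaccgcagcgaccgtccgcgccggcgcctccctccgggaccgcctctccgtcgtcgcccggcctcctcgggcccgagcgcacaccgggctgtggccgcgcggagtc
Fdps: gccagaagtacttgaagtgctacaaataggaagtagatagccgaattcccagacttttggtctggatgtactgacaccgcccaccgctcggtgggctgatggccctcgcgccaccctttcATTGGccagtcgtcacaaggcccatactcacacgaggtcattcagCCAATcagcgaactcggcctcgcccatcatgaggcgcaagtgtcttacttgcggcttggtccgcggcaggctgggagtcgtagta
Idi1: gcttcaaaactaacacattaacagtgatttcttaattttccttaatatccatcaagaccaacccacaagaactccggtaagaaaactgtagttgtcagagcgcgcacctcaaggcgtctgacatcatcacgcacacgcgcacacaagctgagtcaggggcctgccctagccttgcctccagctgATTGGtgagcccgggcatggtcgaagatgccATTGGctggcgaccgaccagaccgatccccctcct
The signals of Gstp1, Fdps and Idi1 are given above. Gclm, the modifier subunit of glutamate-cysteine ligase, read 479, 340 and 693 and was higher by 0.54 ± 0.09 under number 3 on the treated arrays.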

How the data were processed

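Total RNA of cultured rat retinal ganglion cells was measured on Affymetrix Rat Genome 230 2.0 arrays. Each value in the deposited table is a linear intensity, made by the authors with MAS5, per the submitters' processing notes; no version or setting of MAS5 is given in the sources used here. The trimmed means of the arrays are nearly equal, and no further scaling was applied. Detection calls were not used here. Names came from GEO's platform annotation: 20826 probe sets had 1 symbol, 436 several and 9780 none, and 20758 matched RefSeq by Entrez ID. Array number limits the precision.

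Log2 signals had no pseudocount, and a gene was represented by its brightest probe set. The members and the 36 gene lists were chosen with earlier results of these data known; 575 of their 643 genes were measured. Named genes came from the 30 brightest, the markers and endothelin genes, the 4 highest and 2 lowest of each list, and the 10 steadiest. Also named were the 12 (replicate 3) or 5 (replicates 1 and 2) highest and lowest of each array. These were taken among genes at or above the median gene. Other list members named were chosen after their values were seen. Differences between replicate numbers on the 9 treated arrays were tested with limma 3.58.1 in R 4.3.3 (treatment as a term, eBayes with trend, 4 residual degrees of freedom, two-sided, Benjamini-Hochberg over 15521 probe sets, threshold 0.05). The fit was tested on simulated data. Deviations from group means correlated at 0.687 to 0.905 between the 18 pairs of arrays of equal number and at -0.701 to -0.04 between the 36 of different number, across probe sets; what a number stands for is not given in the labels. Tables were handled in Python 3.11.15 with pandas 2.3.3. Alternatives were other scalings, a pseudocount of 50, no filter, other folds, other ways to rank, and leaving out arrays; those on list medians were chosen after seeing the data.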

Additional observations from a re-analysis of the deposited data

How the results depend on the processing

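Over 24 results 146 values were recomputed. For 126 the change was within 1.5 times (counts) or within the spread between replicates or pairs of arrays (other values). The other 20 moved farther, and none of the 7 list medians among these results changed sign. Totals of probe sets can hide a turned split, as under median centring in the report. Within those limits the median of the axonal cytoskeleton on replicate 1 went to -0.079 in place of -0.262 (quantile normalization) and that of antioxidant genes on replicate 3 to 0.261 in place of 0.497 (median centring). Medians of some lists outside those 7 did change sign. On replicate 3 the axonal cytoskeleton went from 0.127 to -0.109 (median centring) and photoreceptor genes from 0.279 to -0.201 (quantile normalization). By the mean over probe sets, 6 ganglion cell genes in place of 10 and 7 vesicle release genes in place of 12 lay in the top 10%. By the mean of linear signals 8 fibroblast genes did in place of 4, and leaving out an array gave 2 to 9. For microglia and macrophages leaving out an array gave 1 to 2. Without the filter on low signal, 10943 probe sets spanned 2-fold in place of 1670, and 5505, 4522 and 7265 stood apart on replicates 1, 2 and 3 in place of 622, 294 and 927; replicate 1 was then higher in 1767 and lower in 3738. At 1.5-fold these were 1817, 1280 and 2784, and at 4-fold 118, 13 and 109. With a pseudocount of 50, 185 stood apart on replicate 2. With median centring the median of vesicle release genes on replicate 3 was 0.057 in place of 0.293. On the treated arrays, number 3 had 13966 calls without the filter in place of 9214. No paired analysis was possible because the replicate number that would form the pairs is itself the term compared. With 3 untreated arrays, dim probe sets (median SD 1.02 in the lowest of 4 bins) carry no order. The causes of these shifts were not tested.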

Other observations

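The values of 4 neuropeptide genes, picked after they were seen and standing for no list, are given here. Npy, neuropeptide Y, read 1641, 1621 and 1526 on untreated replicates 1, 2 and 3 (SD 0.06, n = 3). Gal, galanin, read 1952, 2077 and 622, and Vip, vasoactive intestinal peptide, 4703, 1242 and 730. Adcyap1, the peptide PACAP, read 3115, 1685 and 1014. Replicate 3 was lowest for all 4 genes. Under number 3 of the treated arrays Gal and Vip were lower, with log2 differences of -1.56 ± 0.06 and -1.45 ± 0.06 (SE; limma adjusted p = 1.92e-09 and 2.87e-09).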
